A study of Mus musculus with 6 samples.

Results

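Motor neurons labelled as lacking the mir-17~92 microRNA cluster were compared with motor neurons labelled wild type, gene by gene, on arrays that carry several probes for many genes. A probe entered the comparison when its signal was well above background on all 4 motor neuron arrays, and 19142 of 55681 probes did. Of these, 12591 matched a gene by RefSeq accession, which gave 10203 genes, of which 8162 had 1 such probe and 2041 had 2 or more. The genes described are the 1067 of those 2041 on which every probe differed in the same direction between the genotype labels: 606 were higher and 461 lower on the knockout-labelled arrays. The other 974 genes had probes on opposite sides and were left out of that set. Only these qualifying probes are meant where a gene's probes are counted. The sign of the difference was used to choose the 1067 genes, so their directions are a description of these arrays.

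The series holds 6 arrays of spinal cord cells from mouse embryos at E12.5 that carried the Hb9::GFP reporter, in which the promoter of a motor neuron transcription factor drives green fluorescent protein. Cells were dissociated with trypsin and sorted by flow cytometry, and their total RNA, carrying the dye Cy3, was put on 1-colour Agilent mouse arrays. The knockout-labelled group (mir-17~92 -/- ; Hb9::GFP, GFP-on) and the wild-type-labelled group (WT ; Hb9::GFP, GFP-on) had 2 arrays each. The 2 GFP-off arrays, 1 for each genotype label, came from the non-motor-neuron fraction of embryos with the same reporter. They played no part in choosing the genes and served for comparison. Strain, sex, the number of embryos behind each sample and the cells in which the cluster was deleted are not given in the labels. The labels do not say that replicates came from separate embryos, so each test measures only the spread between these arrays.

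The mir-17~92 cluster is a stretch of 1 primary transcript from which several microRNAs are cut. MicroRNAs guide a silencing complex to messenger RNAs whose 3′ ends pair with the seed, bases 2 to 8 of the microRNA, and lower the stability and translation of those messages. The cluster is known as a promoter of cell growth and survival, and in the embryonic spinal cord it is known for a role in the survival of limb-innervating motor neurons. In the RefSeq annotation of mouse build GRCm38.p6 its 6 hairpins lie on the plus strand at chr14:115043671-115044506. The 6 mature microRNAs of the guide strands are shown because they are what the knockout label says is missing. Letters run 5′ to 3′ and capitals mark the seed.

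mmu-miR-17-5p: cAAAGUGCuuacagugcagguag
mmu-miR-20a-5p: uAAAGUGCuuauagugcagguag
mmu-miR-18a-5p: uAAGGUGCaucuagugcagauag
mmu-miR-19a-3p: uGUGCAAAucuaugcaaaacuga
mmu-miR-19b-3p: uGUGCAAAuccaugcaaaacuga
mmu-miR-92a-3p: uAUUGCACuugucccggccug

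The 6 microRNAs carry 4 seeds: miR-17-5p and miR-20a-5p share one, miR-19a-3p and miR-19b-3p share another, and miR-18a-5p and miR-92a-3p each have their own. Mature microRNAs are too short for this array, and the cluster's host transcript, Mir17hg, was the available check of the labels. Values throughout are log2 signals relative to the 75th percentile of the array, called the log2 level, averaged over a gene's probes. Mir17hg had log2 levels of 4.55 and 4.78 on the motor neuron arrays of the knockout label, against -2.38 (not well above background) and 2.73 under the wild-type label. The host transcript was thus higher under the knockout label on every motor neuron array, the opposite order to a loss of the transcript. On the GFP-off arrays the order was the same, with 4.62 under the knockout label and -1.23 under the wild-type label, both well above background. Where its single probe lies relative to the deleted stretch is not given in the sources used here, and a probe outside that stretch would check nothing. The groups are therefore called by their labels.

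The arrays were unequal in brightness. Processed signals had a 75th percentile of 59.9 and 506 intensity units on the motor neuron arrays of the knockout label and 48.5 and 64.5 under the wild-type label, and 42.7%, 58.9%, 40.3% and 43.4% of probes were well above background on the same arrays. No spot was saturated. Over all qualifying probes, the knockout-labelled replicates correlated at 0.966 and the wild-type-labelled ones at 0.927. Wild-type-labelled replicate 2 correlated with the other 4 arrays at 0.735 to 0.804. The knockout-labelled motor neuron arrays correlated with the GFP-off arrays at 0.929 to 0.959 and with the wild-type-labelled motor neuron arrays at 0.735 to 0.902. Both knockout-labelled motor neuron arrays lay in row 1 of the slide and both wild-type-labelled ones in row 2, so genotype label and slide row cannot be told apart. Over all 10203 genes the median difference (knockout-labelled minus wild-type-labelled) was 0.24 on the log2 scale.

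Across all genes, 1385 gene means were higher (13.6%) and 797 lower (7.81%) on the knockout-labelled arrays by limma at a Benjamini-Hochberg adjusted p under 0.05. Among the 1067 genes with every probe on the same side, 159 of the 606 higher and 85 of the 461 lower passed the same test. Calls in either direction made up 23.6% of genes with 1 qualifying probe and 12.3% of genes with 2 or more. The gene mean of members that were higher had a median difference of 0.99 and that of members that were lower a median of -0.89, and single genes ran from -3.13 to 3.11. Because members were chosen by sign, these shares are set beside the background and nothing is read from them. All of a gene's probes passed the test by themselves in 56 higher and 40 lower members, where 13.2% of all qualifying probes were called higher and 19.4% lower. The groups did not overlap on any probe in 531 members, 275 higher and 256 lower, where 31.3% of all probes had no overlap with the knockout-labelled arrays on top and 39.2% with them at the bottom, and 38.9% and 28.3% of all gene means. Every probe differed by more than 1 on the log2 scale, a 2-fold change, in 207 members (19.4%), 123 higher and 84 lower, beside 164 of the 974 genes left out (16.8%) and 3765 of all 10203 genes (36.9%).

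Of the members without overlap on any probe, the 10 higher ones with the largest change on their weakest probe were Dock11, Supt4b, Snrnp200, Tmem242, Bcl11b, Ube2e3, Wdr33, Clk4, Sec11a and Twf1, and each had 2 qualifying probes.

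Dock11, an activator of the small GTPase Cdc42, had log2 levels of 2.09 and 2.22 on the knockout-labelled arrays and -0.36 and -1.56 under the wild-type label. Its difference of 3.11 ± 0.48 (SE, n = 2 arrays against 2) was an 8.66-fold higher signal (limma adjusted p = 0.0063), and its probes gave 2.95 and 3.28. The knockout-labelled arrays lay close together and far above both wild-type-labelled ones, which lay farther from each other. Bcl11b, a zinc-finger transcription factor of developing neurons and T cells, had levels of 1.14 and 1.68 against -1.36 and -1.29. Its mean was 6.64-fold higher (difference 2.73 ± 0.42, adjusted p = 0.006). Within each label the Bcl11b values lay far closer to each other than to those of the other label.

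Snrnp200, the helicase of the spliceosome's U5 particle, had log2 levels of 2.47 and 3.07 on the knockout-labelled arrays against 0.26 and -0.08, a 6.41-fold higher signal (adjusted p = 0.00658). Supt4b, 1 of the mouse gene copies for the transcription elongation factor SPT4, had levels of 1.94 and 2.35 against -0.39 and -0.63, a 6.28-fold higher signal, and its probes could also bind transcripts of the near-identical copy. Wdr33, a subunit of the complex that recognises the polyadenylation signal, had levels of 1.22 and 1.31 against -0.84 and -0.88, and its probes gave nearly equal differences of 2.12 and 2.13. In all 3 genes the gap between the labels was larger than the gap between replicates. Clk4, a kinase that phosphorylates splicing factors, had levels of 2.56 and 2.46 against 0.33 and 0.13, a 4.84-fold higher signal (adjusted p = 0.00861).

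Ube2e3, a ubiquitin-conjugating enzyme, had log2 levels of 4.01 and 4.45 on the knockout-labelled arrays against 2.63 and 1.42, a 4.62-fold higher signal (adjusted p = 0.0161). Sec11a, the catalytic subunit of the signal peptidase, had levels of 2.65 and 3.22 against 0.78 and 0.51, a 4.89-fold higher signal. Twf1, twinfilin, which binds actin monomers, had levels of 2.39 and 2.55 against 0.83 and -0.32, a 4.63-fold higher signal. The groups did not overlap in any of them, although wild-type-labelled replicate 2 lay more than 1 unit below replicate 1 for Ube2e3 and Twf1. Tmem242, a small membrane protein gene, had levels of 0.75 and 1.58 against -1.28 and -1.10, a 5.11-fold higher signal (adjusted p = 0.00991).

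The 10 lower members chosen in the same way were Fam205a2, Snap23, Krtap19-5, Gabbr2, Tet3, Kmt2d, Rhox8, Mdm4, Gcm1 and Snx9. Several belong to tissues other than the spinal cord: Gcm1 is a transcription factor of the placenta, Krtap19-5 a keratin-associated protein of hair, and Rhox8 a homeobox gene of the reproductive tract. Gcm1 nevertheless had log2 levels of 5.96 and 5.96 on the knockout-labelled arrays and 7.42 and 8.87 under the wild-type label. All 3 of its qualifying probes passed the test, and their mean was 4.56-fold lower under the knockout label (difference -2.19 ± 0.52, adjusted p = 0.0188). Rhox8 had levels of 3.36 and 3.11 against 5.08 and 5.98, a 4.93-fold lower signal. Another Gcm1 probe, with the same accession, was not well above background on any of the 6 arrays. The Rhox8 probes differed in brightness: one had levels of 7.37 and 7.82 on the knockout-labelled arrays and the other -0.66 and -1.60. Which transcripts bound the probes was not tested. Krtap19-5, from a family of similar genes, had levels of -0.07 and 0.08 against 1.23 and 3.82, so that its 5.74-fold lower signal (adjusted p = 0.0336) rested on wild-type-labelled arrays that lay far apart. Fam205a2, also of a multigene family, had levels of -0.49 and -3.62 against 0.07 and 2.08. Its 8.76-fold lower signal (adjusted p = 0.04) was the lowest gene mean difference among members, and its knockout-labelled arrays lay the farthest apart of these 10 genes.

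Snap23, a SNARE protein of vesicle fusion, had log2 levels of 3.29 and 2.03 on the knockout-labelled arrays against 5.10 and 5.94, a 7.25-fold lower signal (difference -2.86 ± 0.53, adjusted p = 0.00941). Kmt2d, a histone H3 lysine methyltransferase, had levels of -0.95 and -1.47 against 0.64 and 1.61, a 5.04-fold lower signal. Tet3, which oxidises methylated cytosine in DNA, had levels of -1.16 and -1.50 against 0.61 and 1.25, a 4.79-fold lower signal. Each of the 3 was lower on both knockout-labelled arrays by more than the replicates of either label differed. Gabbr2, a subunit of the GABA-B receptor, had levels of -1.95 and -2.19 against -0.28 and 0.71, a 4.88-fold lower signal (adjusted p = 0.0122). Mdm4, an inhibitor of p53, had levels of -0.47 and -0.56 against 1.29 and 2.15, a 4.70-fold lower signal (adjusted p = 0.0117). Snx9, a sorting nexin of endocytosis, had levels of 0.21 and -0.33 against 1.52 and 2.20, a 3.80-fold lower signal. Of the 10 lower genes, Fam205a2, Gabbr2, Kmt2d, Mdm4 and Tet3 lay below the 75th percentile of the array on both knockout-labelled arrays. Fam205a2, Gabbr2, Kmt2d and Tet3, like Gcm1, also had 1 probe that did not qualify.

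Leaving out 1 array at a time kept the direction of all 20 of these genes. Without knockout-labelled replicate 2, the brightest array of the 4, 4 of the 20 still passed the test (highest adjusted p 0.269). Without knockout-labelled replicate 1 or wild-type-labelled replicate 1, all 20 passed, and without wild-type-labelled replicate 2, 19 did.

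**Figure D1:**
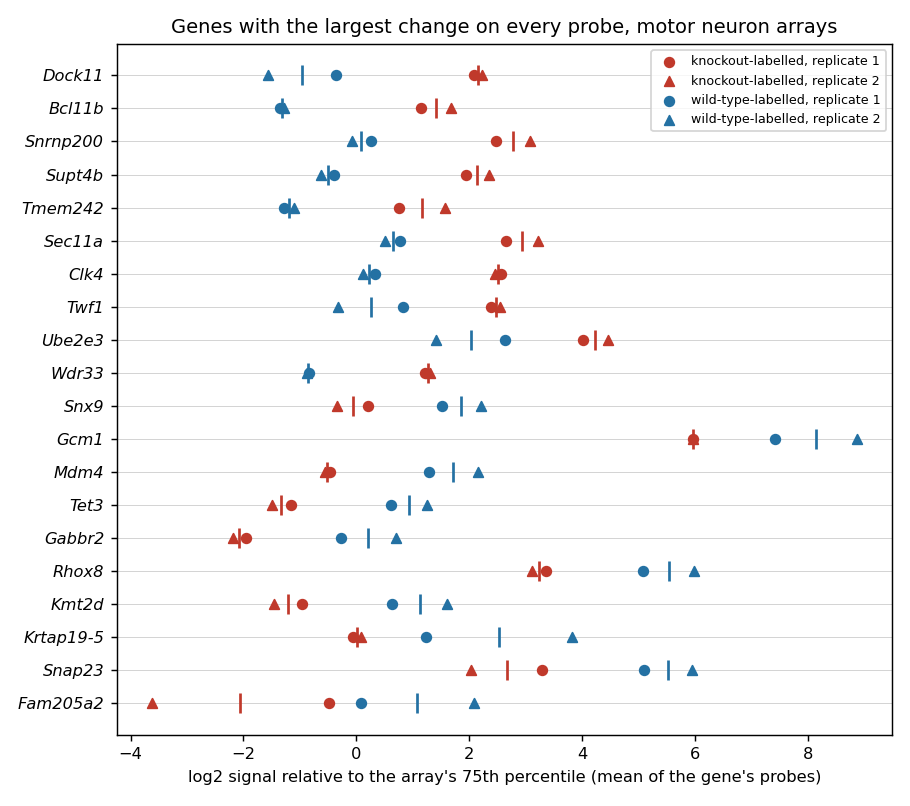
Log2 signal relative to the array's 75th percentile (horizontal axis) for the 20 genes with the largest change on every probe, 10 lower and 10 higher. Red marks are the knockout-labelled and blue marks the wild-type-labelled motor neuron arrays, circles are replicate 1, triangles are replicate 2 and vertical ticks are group means; no gene's groups overlap, and the blue points of Krtap19-5 and the red points of Fam205a2 are the widest apart.

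Members with 3 or more qualifying probes had more measurements to agree. Rab9, a small GTPase of traffic from late endosomes, was higher with all 3 probes called: its log2 levels were 1.57 and 2.26 against 0.77 and -0.18 (difference 1.62 ± 0.48, adjusted p = 0.039). Chtop, a chromatin-associated factor of messenger RNA export, had levels of 2.94 and 3.58 against 1.36 and 1.29, with 2 of 3 probes called and a mean 3.81-fold higher (adjusted p = 0.0156). Vash1, vasohibin, which removes tyrosine from tubulin, had levels of 4.81 and 4.04 against 6.22 and 6.48, with all 3 probes called and a mean 3.80-fold lower (adjusted p = 0.0169). The groups did not overlap in these 3 genes. Kpna2, an importin of nuclear transport, had all 4 probes on the higher side, but its gene mean did not pass: levels were 4.24 and 4.69 against 3.94 and 1.97 (difference 1.51 ± 0.61, adjusted p = 0.102). Wild-type-labelled replicate 1 lay much nearer to the knockout-labelled Kpna2 values than to its own replicate. Without knockout-labelled replicate 2, none of these genes and their lower counterparts Fam205a2 and Gcm1 passed.

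Known targets of the cluster were read from a list of 42 genes compiled from general knowledge. Of its 29 measured genes, 10 rose (34.5%, beside 13.6% of all genes) and 3 fell (10.3%, beside 7.81%), with a median difference of 0.54 beside 0.24 over all genes. Those called higher were Ccnd1, Hif1a, Isl1, Itch, Jak1, Nedd4, Rb1, Smad2, Smad4 and Tgfbr2, and those called lower were Cyld, Nfat5 and Rora. Only 5 of the 29 had 2 or more qualifying probes. Smad4 had every probe higher, and E2f3, Hipk3 and Rest had probes on opposite sides.

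Smad4, the shared partner of the SMADs that carry TGF-beta and BMP signals, had log2 levels of 2.52 and 3.06 on the knockout-labelled arrays and 1.12 and 0.70 under the wild-type label. Its mean rose 3.69-fold (difference 1.88 ± 0.43, adjusted p = 0.0169). One of its probes passed the test alone, with 2.56, and the other gave 1.21. Its groups did not overlap, and the replicates of each label lay closer to each other than to the other label. Isl1, with 1 probe, had levels of 2.46 and 2.86 against 0.05 and 0.12, a 5.95-fold rise (adjusted p = 0.00647). The wild-type-labelled GFP-off level of Isl1, 0.09, lay between those wild-type-labelled values, so under that label Isl1 was not enriched in the sorted motor neurons. Other single-probe targets are not members, since 1 probe cannot disagree with itself: E2f1 had a difference of -0.33 ± 0.42 (adjusted p = 0.601). The p53 target Cdkn1a was above background on 3 of the 4 motor neuron arrays and the cell death gene Bcl2l11 on 1, so neither was tested.

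In the PI3 kinase and TOR pathway, which drives cell growth, 29 of 39 listed genes were measured. Of these, 2 rose (6.90%, beside 13.6% of all genes) and 1 fell (3.45%, beside 7.81%), with a median difference of 0.12. Of its 9 genes with 2 or more probes, 3 had every probe higher, Foxo1 and Rheb among them, Insr had every probe lower, and 5 were split, among them Akt2, Gsk3b, Irs1 and Pdpk1. Foxo1, a transcription factor that AKT keeps out of the nucleus, had log2 levels of 1.19 and 1.34 against 0.80 and -0.40 (difference 1.06 ± 0.48, adjusted p = 0.139). Rheb, the GTPase that activates TOR complex 1, had levels of 1.33 and 1.66 against 1.29 and -1.12 (adjusted p = 0.159). In both, wild-type-labelled replicate 2 was the low array and replicate 1 lay near the knockout-labelled values. No member of this list passed the test on its gene mean.

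The NEDD4 family of ubiquitin ligases and its adaptors had 13 of 14 genes measured. Arrdc3, Itch and Nedd4 rose (23.1%, beside 13.6% of all genes). Wwp1 and Wwp2 fell (15.4%, beside 7.81%). The median difference was -0.18. Nedd4 had 1 probe, with log2 levels of 6.31 and 6.28 against 4.76 and 5.22 (difference 1.30 ± 0.41, adjusted p = 0.0494), and Ndfip1, an adaptor of these ligases, had -0.18 ± 0.43. Of 3 genes with several probes, Nedd4l had every probe higher, with levels of 2.31 and 2.72 against 2.23 and 1.26 (adjusted p = 0.251), and Smurf2 every probe lower, with levels of 0.66 and 0.88 against 1.57 and 1.65 (adjusted p = 0.157). Arrdc4 was split.

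Among genes of cell death and the p53 response, 5 of 25 measured rose (20%, beside 13.6% of all genes). In this list 1 fell (4%, beside 7.81%), and the median difference was 0.39. Mcl1, an anti-apoptotic BCL2 relative, had every probe higher, with log2 levels of 2.82 and 3.35 against 1.58 and 1.34, a 3.07-fold rise (adjusted p = 0.0254). It moved opposite to Mdm4, the only listed gene that fell, and Trp53inp1 was split. The other genes that rose, each with 1 probe, were Birc2, Casp6, Diablo and Hrk, of which Birc2 restrains and the others promote cell death. Of 29 measured cell cycle genes 8 rose (27.6%, beside 13.6% of all genes) and none fell, with a median difference of 0.91. Their only member was Cdk4, a kinase of the G1 phase, with levels of 4.73 and 5.27 against 3.57 and 2.85 (difference 1.79 ± 0.45, adjusted p = 0.0224). It lost its call without knockout-labelled replicate 1 (limma adjusted p = 0.0528) or replicate 2 (0.275) and with its brightest probe alone (0.295). Birc5, Ccnb1 and Mki67 were split.

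Of the 34 list members that the naming rule took, 15 were called. Without knockout-labelled replicate 1, 5 were, without its replicate 2, 1 was, and without wild-type-labelled replicate 1 or 2, 26 and 14 were.

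The genes that name the sorted cells could rarely be checked by several probes. All 23 matched motor neuron identity genes were well above background on the knockout-labelled arrays, and 22 and 20 under the wild-type label. Isl1, Isl2 and Prph rose, 3 of 20 tested (15%, beside 13.6% of all genes), and none fell. Prph, the neurofilament-type protein peripherin, had the largest of these differences, with log2 levels of 3.97 and 4.04 against 0.11 and -0.99, a 21.7-fold rise (adjusted p = 0.00532). Chat, the enzyme that makes acetylcholine, had levels of -0.47 and -0.79 against -0.66 and 0.08 (difference -0.34 ± 0.44, adjusted p = 0.598), so its groups overlapped. On the GFP-off arrays of the knockout and wild-type labels, Prph had -0.13 and -0.55, Isl1 1.04 and 0.09, and Chat -3.59 and -3.68. Under the wild-type label the GFP-off level thus lay between the motor neuron arrays for Prph and Isl1, and far below them for Chat. The cause was not tested. The only identity gene with several qualifying probes was Foxp1, the determinant of limb-innervating motor neurons, and its probes split, at -0.77 and 1.42. In such bulk samples fewer cells of a type and less RNA per cell cannot be told apart.

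Marker genes of other cell types were summed on each array. The summed linear level of 23 motor neuron genes, relative to the 75th percentile, was 195 and 199 on the knockout-labelled arrays and 139 and 107 under the wild-type label. For 30 progenitor and radial glia genes the sums were 134 and 163 against 87.0 and 56.7, and for 19 neural crest and Schwann cell genes 112 and 90.6 against 60.04 and 50.4. Neither pair of sums overlapped, but a linear sum weighs its brightest genes most. In the progenitor list Vim had log2 levels of 6.01 and 6.24 against 4.97 and 3.88. Fabp7 had 5.21 and 5.36 against 2.66 and 1.95. Of 15 tested progenitor genes, 4 rose (26.7%, beside 13.6% of all genes) and 3 fell (20%, beside 7.81%), so the sums do not describe the whole list. The 21 microglia and macrophage genes summed to 250 and 86.6 against 487 and 779, and the 17 red blood cell genes to 1212 and 516 against 1428 and 1442. Mesenchymal genes summed to 592 and 544 against 499 and 343, endothelial genes to 23.3 and 41.0 against 44.97 and 135, and interneuron genes to 81.2 and 106 against 76.0 and 85.1. The interneuron groups overlapped. Shh, Prrxl1, Cd163, Spi1, Epb42, Klf1 and Rhag were not well above background on any motor neuron array. Single genes did not always follow the sum. Of 9 tested microglial genes 4 rose (44.4%, beside 13.6% of all genes) and 1 fell (11.1%, beside 7.81%). The gene that fell was Itgam, with bright log2 levels of 7.75 and 5.57 against 8.90 and 9.58. On the linear scale its 1 probe made up most of the microglial sum on each array, so that sum does not describe its list. Of the 21 microglial genes, 15 and 19 were well above background on the knockout-labelled arrays and 10 and 9 under the wild-type label. The part of these cell types in the gene differences was not tested.

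Few of these markers had several qualifying probes, and where they did the probes often disagreed. Barhl1 of interneurons, Csf1r of microglia, Hbb-y of red blood cells and Kdr of endothelium all had probes on opposite sides. The neural crest list gave 2 members: Ednrb, an endothelin receptor, had log2 levels of 2.72 and 1.67 against -0.53 and -0.38, a 6.24-fold rise with both probes called (adjusted p = 0.00855). Ntrk2, the receptor for BDNF, had levels of 0.94 and 1.08 against -0.25 and -0.20 (adjusted p = 0.0534). The progenitor list gave members of both signs. Dll3, a Notch ligand of newborn neurons, had levels of 1.93 and 2.55 against 0.90 and 0.49 and rose 2.91-fold (adjusted p = 0.0333). Sox1 had levels of -1.54 and -2.19 against -0.33 and -0.45 and fell (difference -1.47 ± 0.43, adjusted p = 0.0366). Each had 1 of its 2 probes called, at 1.92 for Dll3 and -2.37 for Sox1. The other probes gave 1.16 and -0.58. The single microglial receptor gene Cx3cr1, with 1 probe, rose 4.21-fold, with levels of 1.26 and 1.52 against -0.02 and -1.35 (adjusted p = 0.0204).

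Among axon guidance genes, 44 of 51 were measured, and the median difference was 0.17. Of these, 4 rose (9.09%, beside 13.6% of all genes) and 3 fell (6.82%, beside 7.81%). Of 13 with several probes, Chl1, Cxcl12, Nrp2, Robo2 and Sema3c had every probe higher, Dcc and Sema5b every probe lower, and 6 were split. Dcc, a receptor for netrin, had log2 levels of 3.91 and 4.09 against 5.03 and 6.49 and fell by 1.76 ± 0.52 on the log2 scale (adjusted p = 0.0393). Dcc was the only member of this list to pass. Its brighter probe gave -2.11 and passed alone, and its dimmer probe gave -1.40 and did not (limma adjusted p = 0.0599). On the knockout-labelled arrays the brighter probe had levels of 7.68 and 7.88 and the dimmer one 0.14 and 0.29. The brightest Gcm1 probe had 7.40 and 7.90 there, and the brighter Rhox8 probe 7.37 and 7.82. Their differences were -2.05 and -2.12, near that of the brighter Dcc probe. Which transcripts bound the Dcc probes was not tested. Chl1, an adhesion molecule, had levels of 3.71 and 3.65 against 2.66 and 2.26, without overlap, and did not pass (adjusted p = 0.0595). Cxcl12, a chemokine, had levels of 2.70 and 3.01 against 2.27 and -0.03. Both of its probes passed alone, with 1.72 and 1.76, and its mean did not (adjusted p = 0.0855). The wild-type-labelled arrays lay far apart on each probe too, at 3.92 and 1.46 on one and 0.62 and -1.53 on the other. Probes and gene means were tested in separate fits.

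Ion channels and release genes had members on both sides. Of 9 channel genes with several probes, Cacna1a, Cacna2d1 and Scn3a were higher, Hcn2, Kcnma1 and Scn8a lower, and 3 were split. Hcn2, a channel of pacemaker current, had log2 levels of 3.13 and 2.001 against 4.10 and 4.84 and fell (difference -1.90 ± 0.50, adjusted p = 0.0269). Its brighter probe gave -2.49 and passed alone, and its dimmer probe gave -1.32 and did not. The calcium channel subunit gene Cacna2d1 had levels of 2.10 and 2.40 against 1.53 and 1.40 (adjusted p = 0.187). Of 5 release genes with several probes, 1 was higher, Cplx2 and Syt6 were lower and Pclo and Rab3c split. Cplx2, a complexin that clamps vesicle fusion, had all 4 probes lower, 3 of them called, with levels of 5.91 and 5.50 against 6.51 and 7.48. Its mean did not pass (difference -1.29 ± 0.47, adjusted p = 0.0744), and its 4 probes ran from -1.76 to -0.08. Of 30 measured Hox genes, which set position along the body axis, 5 rose (16.7%, beside 13.6% of all genes). In that list 3 fell (10%, beside 7.81%), and the median difference was 0.39. Only 2 Hox genes had several probes. Hoxa9 had every probe lower, with levels of 0.58 and 0.05 against 0.78 and 1.74 (adjusted p = 0.171), and Hoxb3 was split.

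Among genes of the cytoskeleton, 8 of 40 measured kinesin, dynein, tubulin and related genes rose (20%, beside 13.6% of all genes). In that list 1 fell (2.5%, beside 7.81%), and the median difference was 0.56. Of 11 with several probes, only 4 had probes on 1 side. Tuba1b, an alpha-tubulin of developing neurons with close relatives in the genome, had log2 levels of 7.82 and 8.04 against 6.17 and 5.85, a 3.79-fold rise (adjusted p = 0.0141). Stmn1, stathmin, which destabilises microtubules, had levels of 7.96 and 7.97 against 6.505 and 5.69, a 3.66-fold rise (adjusted p = 0.0185). Each had 1 probe of 2 called, and for Stmn1 the probes gave 0.31 and 3.44. Map1b and Map2, which bind microtubules, had every probe lower, and Map1b had levels of 2.76 and 3.12 against 3.52 and 4.03 (adjusted p = 0.177). Dcx, Kif1a, Kif2a, Kif3a, Map1a, Mapt and Tubb2b were split.

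Ribosomal protein genes offered the most multi-probe genes, 48, since many have several probes. Of these, 13 had every probe higher, 9 every probe lower and 26 were split, and over all 75 measured genes 8 rose and none fell. That is 10.7% beside 13.6% of all genes called higher, and their median difference of 0.12 stood beside 0.24. Rpl15 had log2 levels of 5.33 and 5.68 against 3.87 and 3.26, a 3.84-fold rise (adjusted p = 0.0157). Rpl23a had levels of 6.34 and 6.70 against 5.01 and 4.36, a 3.56-fold rise, and Rps3a1 had levels of 5.26 and 5.84 against 4.01 and 3.68, a 3.26-fold rise. Both probes of each of the 3 passed alone. Ribosomal protein genes have many processed copies, which their probes may not tell apart. The balance of directions was set by the scaling: with arrays scaled to their median, 40 of the 48 genes had every probe higher and none every probe lower, with quantile normalization 33 and 2, and with normexp background correction 31 and 2.

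Among genes of the mitochondrial respiratory chain, 9 of 74 measured rose, which is 12.2% beside 13.6% of all genes, and none fell. Their median difference was 0.48, and of 20 with several probes 10 were higher, 4 lower and 6 split. With arrays scaled to their median all 20 had every probe higher. Ndufb6, a subunit of complex I, had log2 levels of 3.31 and 3.90 against 2.61 and 1.11, a 3.35-fold rise (adjusted p = 0.0466). Its probes gave 0.67 and 2.81, and only the larger passed. Cycs, cytochrome c, had levels of 3.59 and 4.17 against 3.47 and 2.23 (difference 1.03 ± 0.50, adjusted p = 0.165), and Ndufb4 had levels of 4.58 and 5.16 against 4.67 and 4.01, in which the groups overlapped. Among the 18 listed genes of the microRNA pathway, Drosha, the nuclease that cuts hairpins from primary transcripts, was the only member (difference 0.67 ± 0.41, adjusted p = 0.262), and Ago2 was split.

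**Figure D2:**
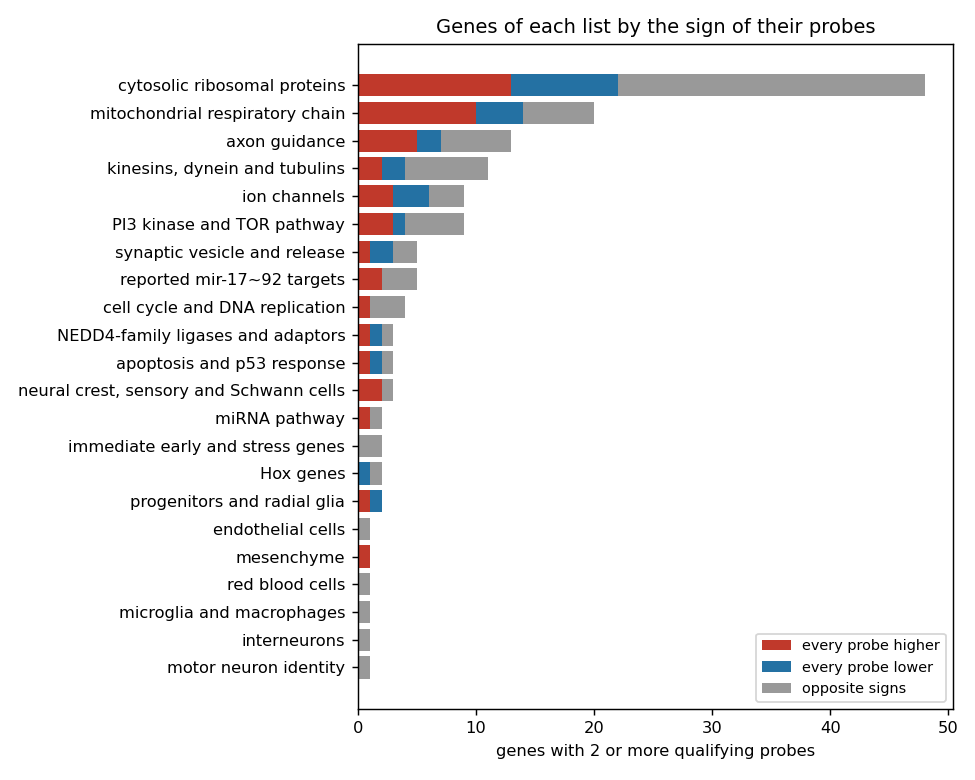
Number of genes with 2 or more qualifying probes (horizontal axis) in each gene list, divided into genes with every probe higher (red) or lower (blue) on the knockout-labelled arrays and genes with probes on opposite sides (grey). Split genes are the largest class among the 48 ribosomal protein genes (26) and among the 11 cytoskeletal genes (7), and only 1 motor neuron identity gene could be scored.

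How often the probes of a gene agreed was itself measured. Of the 2041 genes with 2 or more probes, 52.3% had every probe on 1 side (Wilson 95% interval 50.1% to 54.4%, counting error only), and of the 1768 genes with exactly 2 probes 54.8% did. Over those 1768 genes the differences of the probes correlated at 0.088 (Pearson, across genes, a description). With 3 probes 87 of 223 genes agreed, with 4 probes 8 of 34, with 5 probes 3 of 11, and with 6 or 7 probes none of 5. The same count was made for other differences between the same arrays. It was 74.1% of 2-probe genes (r = 0.732) for motor neurons minus GFP-off cells under the knockout label, 63.1% (r = 0.382) for that difference under the wild-type label and 61.2% (r = 0.207) for the genotype labels in GFP-off cells. Between the replicates of a label, which no group difference separates, it was 63.2% (r = 0.250) for the knockout label and 50.1% (r = -0.037) for the wild-type label. The replicate and genotype differences share arrays, and the agreement of the genotype difference in motor neurons lay between those of the replicate differences.

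**Figure D3:**
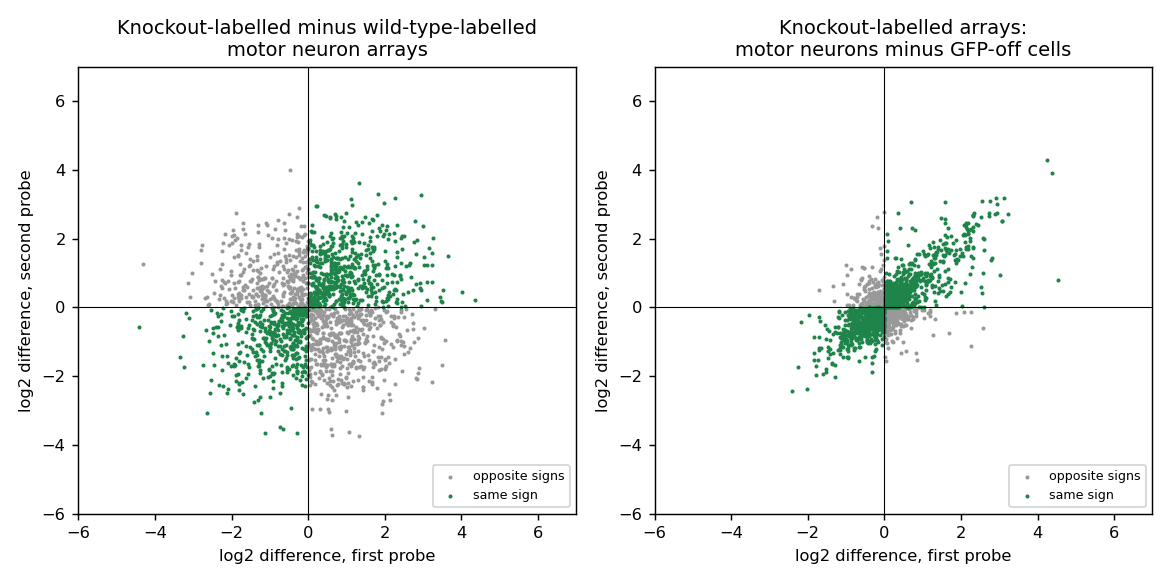
Each point is a gene with exactly 2 qualifying probes; the axes give the log2 difference on its first and its second probe, for the genotype labels in motor neurons (left) and for motor neurons minus GFP-off cells under the knockout label (right). Green points have the same sign on both probes (54.8% left, 74.1% right) and grey points opposite signs; the left cloud shows little slope and the right one lies along the diagonal.

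Agreement was more frequent among brighter probes. Where the dimmer probe of a 2-probe gene had a mean log2 level under -1, 51.1% of 274 genes agreed, and where it was over 2, 64.8% of 375 did, 163 higher and 80 lower. Between these, agreement was 49.7% for levels of -1 to 0, 52.2% for 0 to 1 and 57.0% for 1 to 2. The direction of agreement also moved with signal: in the dimmest class 112 of 140 agreeing genes were lower on the knockout-labelled arrays. Over all qualifying probes, none of 207 with a mean level under -2 was higher, and 14.3% of 2133 between -2 and -1 were. The filter bears on these probes, since the lowest level called above background was -2.76 and -4.97 on the knockout-labelled arrays and -2.10 and -2.30 under the wild-type label. Probes that shared a RefSeq accession agreed in 55.9% of 1581 genes, and probes matched through different accessions of the same gene in 46.0% of 187. Agreement also differed by the prefix of the manufacturer's probe names: 60.4% of 777 genes agreed where both names began A_55, and 40.0% of 85 where one began A_51 and the other A_52. The median difference was 0.65 for all qualifying probes named A_51 and -1.33 for those named A_30.

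**Figure D4:**
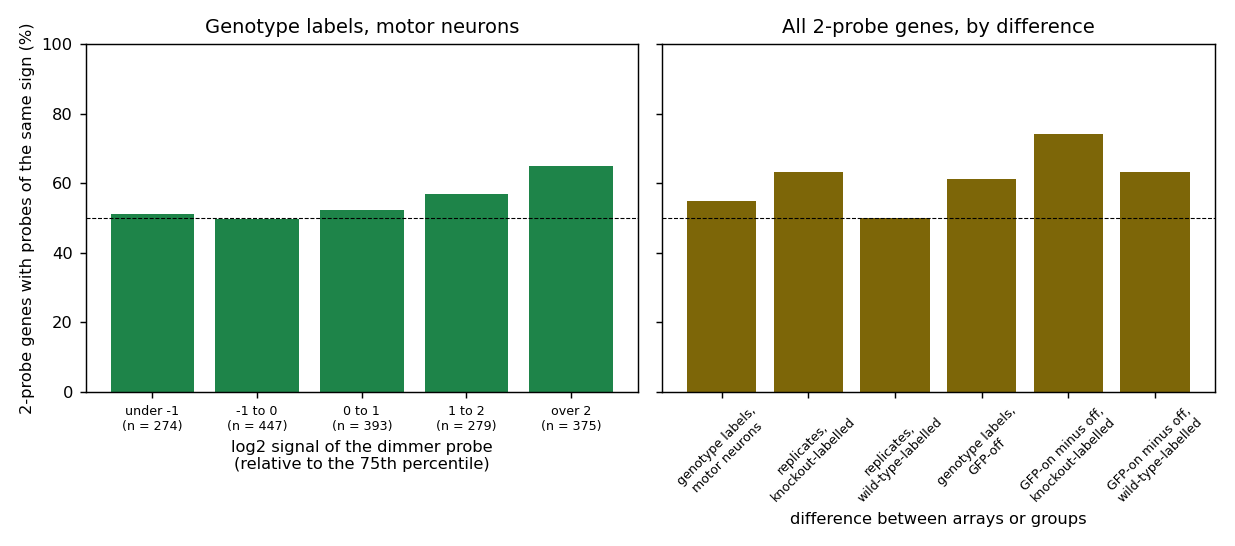
Share of 2-probe genes whose probes had the same sign (vertical axis, percent), by the mean log2 signal of the dimmer probe for the genotype labels in motor neurons (left, n under each bar) and for 6 differences between arrays or groups (right, 1768 genes each). The dashed line marks 50%; the brightest class reaches 64.8%, and the bars on the right run from 50.1% between the wild-type-labelled replicates to 74.1% for motor neurons minus GFP-off cells under the knockout label.

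Among the 160 2-probe genes on which both probes passed the test, 91 agreed in sign, and over all genes with several probes 90 had probes called in opposite directions. Hmgn2, a nucleosome-binding protein, had all 4 probes called, 1 at 2.79 and the 3 others from -2.61 to -1.67. Trio, an exchange factor for small GTPases in growing axons, had probes of -2.71, 0.16 and 2.50. For Gm10406 the probes gave -2.16 and 3.24, both called, and for Inpp5e, a phosphoinositide phosphatase of cilia, -4.30 and 1.26. These 4 had the widest gaps between probes among the genes left out. Around the boundary, Zfp747 was the member with the smallest probe difference (-0.000494, its other probe -0.52), and Ubap2l was left out for a probe at 6.91e-06 beside one at -0.78. The median member had a smallest probe difference of 0.50.

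Single arrays shaped many members. In 502 of 606 higher members the lowest of the 4 values was that of wild-type-labelled replicate 2, and in 504 the highest was that of knockout-labelled replicate 2. In the lower members the highest value was that of wild-type-labelled replicate 2 in 294 of 461 and the lowest that of knockout-labelled replicate 2 in 270. Wild-type-labelled replicate 2 is the array that correlated least with the rest, and without it 426 of the 606 higher and 410 of the 461 lower members still had every probe on their side. Without knockout-labelled replicate 2, 503 and 422 did. With arrays scaled to their median, all 606 higher members stayed higher while 166 of the 461 lower members stayed lower, since that scaling moved the median difference of all genes from 0.24 to 0.87.

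The GFP-off arrays, which played no part in choosing the genes, showed the same labels in other cells of the cord. The knockout-labelled array was above the wild-type-labelled one for 511 of the 606 higher members (84.3%) and for 87 of the 461 lower members (18.9%). It was above for 48.2% of all genes with 2 or more probes and 39.5% of genes left out, neither split by motor neuron sign. Split by that sign, 80.3% of higher and 23.0% of lower probes of members were above 0. For genes with 1 probe these shares were 77.0% and 27.0%, and for probes of genes left out 75.2% and 20.1%. With 1 array for each label, these differences have no replicate check. The median difference in GFP-off cells was 0.20 for higher members and -0.23 for lower members, against 0.99 and -0.89 in motor neurons. Of members with every probe called, 52 of 56 higher and 1 of 40 lower were above 0 in GFP-off cells. Over members the differences of the 2 fractions correlated at 0.69, over genes left out at 0.43 (Pearson, across 1067 and 974 genes, a description). The gene means of genes left out average probes of opposite sign, so nothing is read from their lower value. Over single probes the correlation was 0.67 for members and 0.71 for genes left out. The first motor neuron replicate and the GFP-off array of each label share a tag whose meaning is not stated, so the fractions may not be independent.

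Single genes showed how unlike the sizes were. Dock11 differed by 0.68 in GFP-off cells and by 3.11 in motor neurons, and Snap23 by -0.67 and -2.86. Bcl11b and Clk4 were the exceptions among the 10 highest members, with -0.17 and -0.15 in GFP-off cells, while all 10 lowest members were below 0 there, from -1.10 for Gabbr2 to -0.25 for Krtap19-5. Smad4 gave 0.09 and Dcc -0.99. In levels, the wild-type-labelled GFP-off array lay above both wild-type-labelled motor neuron arrays for all 10 highest members. It lay below both for all 10 lowest members. Bcl11b had GFP-off levels of 1.30 under the knockout label and 1.46 under the wild-type label, and Snrnp200 had 3.14 and 2.80. These members were chosen by their motor neuron differences, and the cause was not tested. The test of whether a gene's difference depended on the cell fraction (limma interaction) called none of 10202 genes, with 832 at an unadjusted p under 0.05. With 1 array left out it called 975 genes (without wild-type-labelled replicate 1), 153 (without wild-type-labelled replicate 2), 10 (without knockout-labelled replicate 1) or 2 (without knockout-labelled replicate 2).

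**Figure D5:**
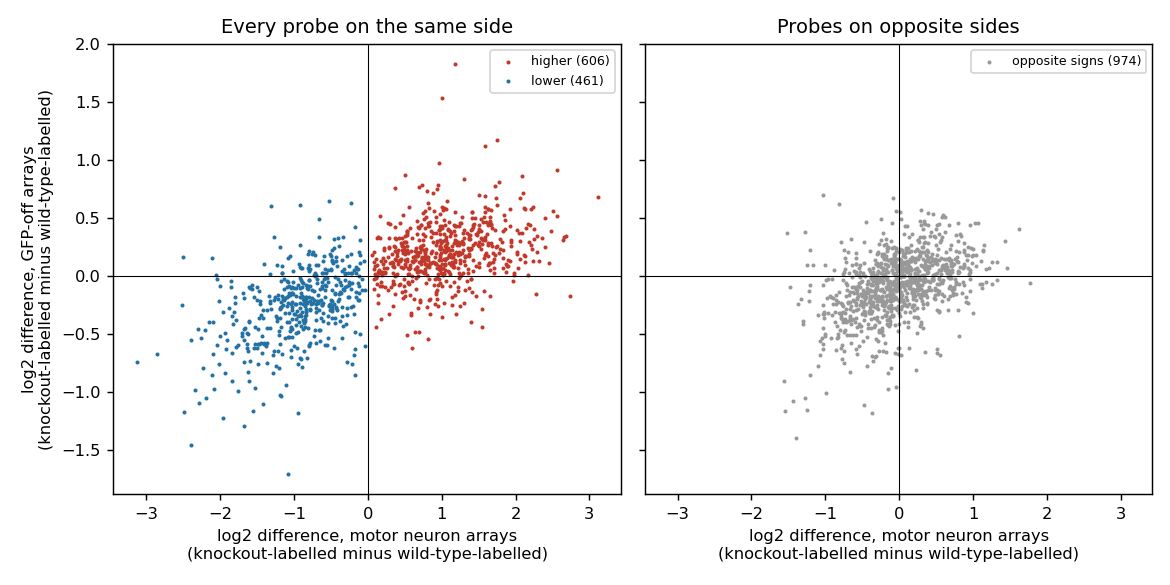
Log2 difference between the genotype labels on the motor neuron arrays (horizontal axis) and on the GFP-off arrays (vertical axis) for genes with every probe on 1 side (left, 606 higher in red, 461 lower in blue) and for genes with probes on opposite sides (right, 974 in grey). Most red points lie above 0 (84.3%) and most blue points below, with smaller differences in GFP-off cells than in motor neurons.

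Probes of genes left out also kept their sign between the fractions. Of 2246 probes of members, 78.9% had the same sign in both fractions, beside 77.6% of 2183 probes of genes left out and 75.4% of 8161 probes of genes with 1 probe. Within genes left out with 2 probes, the probe with the larger motor neuron difference also had the larger GFP-off difference in 718 of 799 genes (89.9%), and in 2-probe members in 665 of 969 (68.6%). The median gap between the probes was 1.94 in motor neurons and 0.43 in GFP-off cells for genes left out, and 0.56 and 0.08 for members. So the order of a gene's probes was largely kept from one sorted fraction to the other, also where the probes disagreed on the direction of the gene.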

How the data were processed

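RNA was measured on 6 arrays, 4 of them from GFP-on cells. Scans were read with Agilent Feature Extraction, per the file headers in version 10.5.1.1 and per the submitters' processing notes in 9.1. The deposited files give each spot's processed signal as an intensity after background subtraction, and flags of other kinds, coded present or absent, for spots above background or irregular. The authors' deposited value table is in log2 and equals the processed signal minus the array's 75th percentile within 0.01. The columns used all belong to the series' samples.

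Processed signals were log2 transformed, averaged over a probe's unflagged spots and shifted by the array's 75th percentile. A probe qualified if more than 0.5 of its unflagged spots were well above background on each of the 4 motor neuron arrays; 5 probes had every spot flagged as an outlier on at least 1 of these arrays and were left out. Of 55681 probes, 26300 matched a gene (19897 genes) through their RefSeq accession in an annotation of GRCm38.p6 and 29381 did not. The file headers name mm9, so genes carry no coordinates; those of the microRNAs are from the RefSeq table. A gene's value was the mean of its qualifying probes.

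Groups were compared by lmFit and eBayes of limma 3.58.1 (R 4.3.3) on the 2 motor neuron groups with 2 residual degrees of freedom, with Benjamini-Hochberg adjustment over all probes or all genes and a threshold of 0.05. The interaction was fitted on all 6 arrays and assumes that the single GFP-off arrays vary like the motor neuron arrays. An exact permutation test of 2 arrays against 2 cannot go below p = 0.333, and precision is limited by how few arrays there are. Scripts were tested on simulated data.

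Genes were named by rule: the 10 higher and 10 lower members with the largest smallest probe difference and no overlap on any probe, the first 3 each way with 3 or more probes, up to 3 per gene list, a set of genes of interest, the genes nearest the boundary and the 4 genes left out with the widest gaps. Some genes that the rule names are not reported here. The members and the lists were chosen with earlier results of these data known. Alternatives changed the scaling, background correction (normexp on median signals, offset 50), filter, probe summary, grouping of probes, replicate block and the arrays included.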

Additional observations from a re-analysis of the deposited data

How the results depend on the processing

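The count of genes with every probe on 1 side, 606 higher and 461 lower (52.3% of genes with several probes), depended on scaling and filter. Scaling to the array median gave 1042 higher and 166 lower (59.2%), no filter on dim probes 1114 and 1877 (56.0%), and a filter of 2 of the 4 arrays 954 higher (49.5%); among 2-probe genes with the dimmer probe over 2, chosen after seeing the data, 64.8% agreed. Gene means called by limma (1385 higher, 797 lower) became 3344 and 374 with the array median, 861 and 370 with quantile normalization and 2329 higher with the looser filter; normexp gave 378 lower. No filter left 0 called each way, with 4700 genes at an unadjusted p under 0.05. Of called genes 63.5% were higher, 89.9% with the array median, 69.9% with quantile normalization and 79.4% with normexp. Probes called (2526 higher, 3711 lower) became 4858 and 1529 with the array median, 2349 lower with quantile normalization, 1266 lower with normexp, 3851 higher with the looser filter and 0 each way with no filter. The interaction called 0 genes, 12 with the array median and 2 with normexp.

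Leaving out each array in turn gave 251 to 3100 gene means higher and 103 to 1479 lower, 464 to 4393 probes higher and 527 to 4674 lower, and 2 to 975 interaction calls. The fewest gene calls came without knockout-labelled replicate 2 and the most without wild-type-labelled replicate 1. Without knockout-labelled replicate 2, 35 of 68 named genes were no longer called as before, and without any filter 41. The causes were not tested.

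Replicate numbers were not shown to pair the arrays: deviations of same-numbered arrays correlated at -0.27 across 10203 genes. With the replicate block, limma called 1354 gene means higher and 795 lower, and 2115 and 3212 probes. Among named genes the block ended the call of Nedd4 (adjusted p = 0.0953) and Sox1 (0.0546) and added Cxcl12 and Kpna2. The crossed pairing, added after seeing the data, called 2345 gene means higher and 1399 lower.

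Some small differences turned sign. With the array median, Chat gave 0.30, E2f1 0.31, Ndfip1 0.46, Ubap2l 0.24 and Zfp747 0.38. With normexp, E2f1 gave 0.0053, Ndfip1 0.25 and Zfp747 0.062. Leaving out 1 array moved Chat between -0.71 (without wild-type-labelled replicate 1) and 0.032 (without replicate 2), and Ndfip1 between -0.53 and 0.18 in the same settings. Foxp1 gave -0.50 with no filter and with the looser one. With the highest-mean probe Foxp1 gave -0.77 and Ubap2l 6.91e-06. None of these passed the test in any of these settings. Grouping by the gene names of the array's design was not run, since the scanner files used hold no such column; grouping by accession, added after seeing the data, gave 574 higher and 461 lower. The lowest signals called above background limit what dim probes can show.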

Other observations

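Other members had every probe called, and those named here were chosen after their values were seen. Igfbp2, a secreted binder of insulin-like growth factors, had log2 levels of 3.69 and 3.89 on the knockout-labelled arrays and 1.56 and 1.81 under the wild-type label (difference 2.11 ± 0.41, limma adjusted p = 0.0105). Copa and Copg2, subunits of the coat of vesicles that return from the Golgi to the endoplasmic reticulum, were both higher, with differences of 1.78 ± 0.42 and 1.51 ± 0.41. Bmi1, a Polycomb protein, was higher by 2.40 ± 0.49 (adjusted p = 0.0126), with levels of 1.83 and 2.19 against 0.21 and -0.99. In none of these did the groups overlap.

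On the lower side, Msi1, an RNA-binding protein of neural progenitors, had levels of -0.18 and -1.08 against 1.15 and 1.78 (difference -2.10 ± 0.47, adjusted p = 0.0162). The imprinting genes Kcnq1ot1, a long noncoding RNA, and Zfp57, a zinc-finger protein that keeps imprints, differed by -1.96 ± 0.41 and -2.06 ± 0.46. Zfp57 differed by 0.0093 in GFP-off cells, the only one of the 40 lower genes with every probe called that was above 0 there. Among single-probe genes, the vesicle proteins Syt10 and Snap25 fell, with levels of 3.25 and 5.67 against 8.01 and 8.73 for Syt10. In GFP-off cells Syt10 differed by 1.45, the opposite sign, and Snap25 by -0.34. Vamp2 and Cplx1 of the same list rose, with levels of 3.33 and 3.27 against 1.12 and 1.29 for Vamp2. Of 23 tested genes of that list, 4 rose (17.4%, beside 13.6% of all genes) and 3 fell (13%, beside 7.81%).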
